A study of Mus musculus with 4 samples.

Results

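The genes described here are the replication-dependent histone genes of the mouse, taken as every row of the gene count table whose symbol starts with Hist1h, Hist2h, Hist3h or Hist4h and is not marked as a pseudogene. There were 67 of them among 24421 rows, and 1 pseudogene row was left out. By protein they comprised 6 linker histone H1 genes, 18 H2A genes, 18 H2B genes, 12 H3 genes and 13 H4 genes. By location, 54 lay in the Hist1 cluster on chromosome 13, 10 in the Hist2 cluster on chromosome 3, 2 in Hist3 on chromosome 11 and 1 (Hist4h4) on chromosome 6. RNA sequencing was done on bone marrow cells sorted as negative for lineage markers and positive for Sca1 and cKit, the LSK fraction that holds hematopoietic stem cells and early multipotent progenitors. The groups were 2 libraries from Zfp521-/- mice, which carry an inactivated Zfp521 gene, and 2 libraries from control littermates labelled as wild type. The labels give neither age nor sex, and the knockout is not described as restricted to one cell type. They call the libraries independent RNA samples without naming the animals, so p-values measure only the spread between these samples, which may in part be technical.

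Replication-dependent histone genes supply the bulk of the proteins that package new DNA. They are transcribed mainly in S phase, when NPAT, activated by cyclin E and CDK2, switches on the histone clusters. Their transcripts have no introns and, unlike other mRNAs, usually end in a conserved stem-loop in place of a poly(A) tail. The stem-loop binding protein SLBP directs their 3' end formation and translation, and the transcripts are degraded when DNA synthesis stops. Some of these genes can also give a polyadenylated RNA, which has been seen in cells that leave the cell cycle.

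The 16-base stem-loop was found in an annotated transcript of 46 of the 67 genes (4 of 6 H1, 11 of 18 H2A, 10 of 18 H2B, 9 of 12 H3 and 12 of 13 H4). The forms that were present in at least 2 genes are shown because they mark these transcripts as histone mRNAs and because the H4 genes carried forms of their own. Capitals mark the paired arms and lower case the loop, as DNA letters of the sense strand from the GENCODE vM21 transcripts.
most common form: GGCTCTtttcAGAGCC
second common form: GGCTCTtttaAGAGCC
H4 form a: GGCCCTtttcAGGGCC
H4 form b: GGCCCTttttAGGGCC
H4 form c: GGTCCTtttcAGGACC
The most common form was held by 26 genes (3 H1, 10 H2A, 8 H2B and 5 H3). The second was held by 6 genes of types H1, H2B and H3. The H4 forms were held by 7, 2 and 2 genes, all of them H4. Where an annotated transcript held no match, only the absence of these letters from the annotated model is known, since many models end at or near the stop codon.

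The libraries held 29863594 and 25813391 counts in the wild type and 22000036 and 17787425 in the knockout. Zfp521 itself had 56.0 and 57.5 CPM (counts scaled to a library's total with TMM factors) in the wild type and 13.9 and 10.9 CPM in the knockout, a log2 fold change of -2.19 ± 0.23 (SE, n = 2 against 2). Defining LSK markers were present at like levels, with summed CPM of 3384 and 3607 in the wild type and 3912 and 3566 in the knockout, and 1 of 11 (Cd34) was lower. Knockout library 2 stood apart in the precursor ribosomal RNA Rn45s, which took 9.37% of its counts against 14.6% to 15.7% in the other libraries. Wild-type library 2 stood apart in reads of the Y-linked gene Ddx3y, with 1582 counts against 2 to 4 in the others. Other lineages moved with genotype: the summed level of 10 B lineage markers was 503 and 590 CPM in the wild type and 115 and 83.9 CPM in the knockout (9 lower), that of 10 dendritic cell markers was 554 and 592 against 1588 and 1463 CPM (6 higher), and that of 8 mast cell and basophil markers was 21.5 and 17.3 against 190 and 118 CPM (6 higher). Of 8 neutrophil markers 5 were higher and 1 lower (7 higher at an unadjusted p under 0.05 in edgeR's test). Their sums lay between 1522 and 1810 CPM in all libraries. Much of each sum was Mpo, the marker that was lower, with 1352 and 1235 CPM in the wild type and 878 and 799 CPM in the knockout. The summed erythroblast markers were 65.4 and 316 CPM in the wild type and 641 and 280 CPM in the knockout, with Hba-a1 at 0 in all libraries, and none of the 6 tested passed in edgeR's test (4 higher at an unadjusted p under 0.05, 2 called by DESeq2). With Rn45s and the histone genes left out of the scaling, the histone counts given below were the same (11 lower, median log2 -1.16). Over all genes tested, 3.01% were lower and 3.77% higher at the adjusted p used below. The part of these other cells and of sex in the histone values was not tested beyond leaving out each library in turn.

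Histone transcripts were lower in the knockout across nearly the whole family. Summed over all 67 genes, they reached 1887 and 1632 CPM in the wild type and 1077 and 602 CPM in the knockout, a mean of 1760 ± 180 CPM (SD, n = 2) against 839 ± 336 CPM (SD, n = 2). Both knockout libraries lay below both wild-type libraries, knockout library 1 at 61.2% and knockout library 2 at 34.2% of the wild-type mean. In bulk samples, fewer dividing cells and less histone RNA per cell cannot be told apart.

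Enough reads for a test were present for 50 of the 67 genes. Of these, 11 passed as lower at an adjusted p under 0.05 (edgeR's quasi-likelihood test, Benjamini-Hochberg over all 14140 genes tested), 0 passed as higher and 39 did not pass. Over all genes tested, 3.01% were lower and 3.77% higher. At an unadjusted p under 0.05, 29 histone genes were lower and 1 higher, where 11.4% of all genes were lower and 13.1% higher. DESeq2, which fitted 60 of the histone genes, called 14 lower and 0 higher, where it called 4.63% of all genes fitted lower and 4.84% higher. The fold change was negative in 47 of the 50 genes, with a median log2 of -1.16 (range -2.12 to 1.07), where all genes tested had a median of 0.015 and 48.8% were negative. Both knockout libraries lay below both wild-type libraries in 44 genes, against 27.6% of all genes tested. They lay above both in 2 genes, against 28.8% of all genes.

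The number that passed depended on the libraries used. Without wild-type library 1 there were 2 histone genes lower (Hist1h2bm and Hist1h2bp), where 0.642% of all genes were lower, and without wild-type library 2 there were 4 (these 2 with Hist1h2bl and Hist1h2ak), where 0.685% were. Without knockout library 1 there were 26, where 7.88% were, and without knockout library 2 there were 9, where 2.84% were. The median log2 stayed negative in each case, between -1.51 and -0.81. In these fits the group with 1 library was assumed to vary like the other group.

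**Figure D1:**
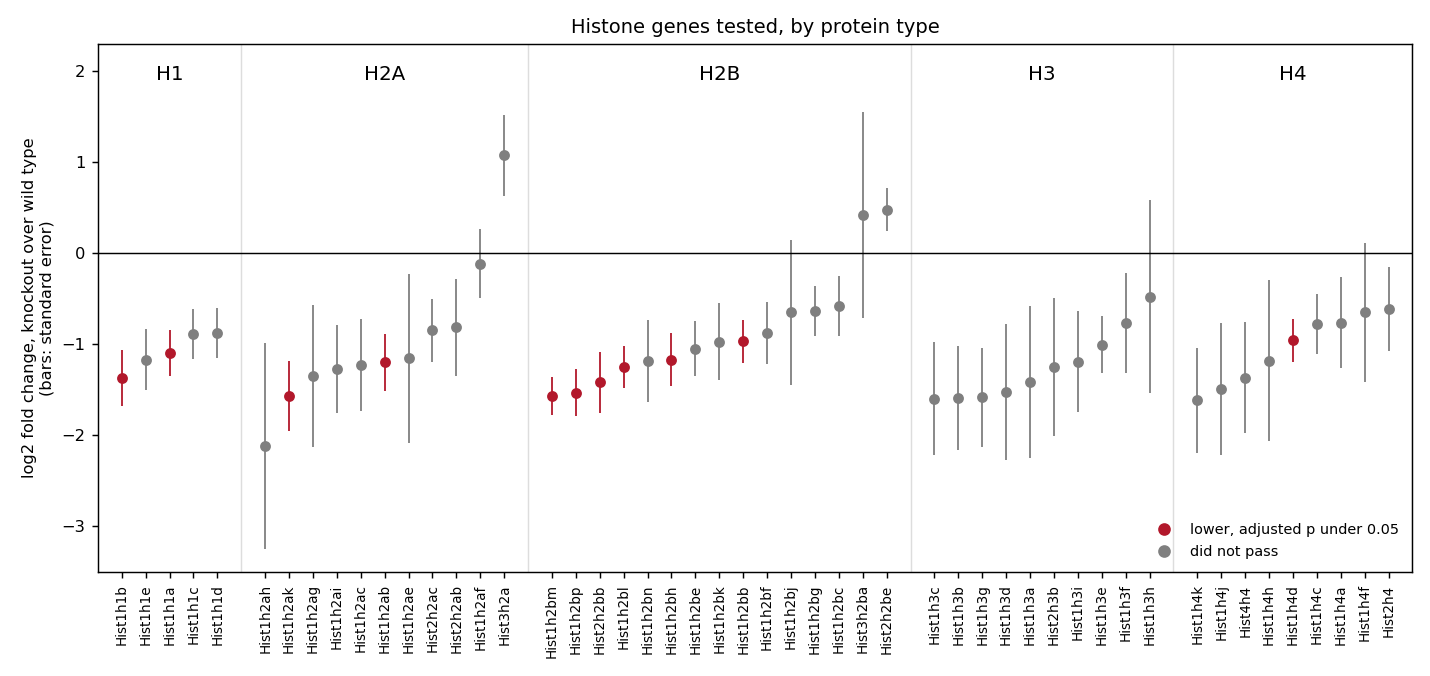
Log2 fold change of knockout over wild type for each of the 50 histone genes tested, ordered within each protein type, with bars for the standard error (2 libraries a group). Points in red passed at an adjusted p under 0.05 (11 genes) and grey points did not, and 47 of the 50 lie below 0.

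The H2B genes, whose protein pairs with H2A in the nucleosome core, gave the most calls, with 6 of the 15 tested lower. Of all genes tested 3.01% were lower. Hist1h2bm (chromosome 13, 21722044 to 21722567, plus strand, GRCm38) had 182 and 164 CPM in the wild type and 70.8 and 45.6 CPM in the knockout. The groups were well apart, and the gene was 2.97-fold lower (log2 -1.57 ± 0.21, SE, adjusted p = 0.00173 in edgeR's test). Hist1h2bp had 65.2 and 53.6 CPM in the wild type and 25.4 and 15.7 CPM in the knockout (log2 -1.53 ± 0.26, adjusted p = 0.00723). Hist1h2bl (21715763 to 21716143, minus strand), second in level per kilobase among H2B genes, had 120 and 100 CPM in the wild type and 57.5 and 35.0 CPM in the knockout (log2 -1.25 ± 0.23, adjusted p = 0.0114). In all 3, knockout library 2 was the lowest of the 4 libraries.

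Hist1h2bb had 51.3 and 37.6 CPM in the wild type and 23.0 and 22.4 CPM in the knockout, and was 1.96-fold lower (adjusted p = 0.0343). Hist1h2bh had 25.7 and 26.1 CPM in the wild type and 13.9 and 9.14 CPM in the knockout (log2 -1.17, adjusted p = 0.0387). Hist2h2bb, the called member outside Hist1, had 14.4 and 17.1 CPM in the wild type and 6.33 and 5.43 CPM in the knockout (log2 -1.42, adjusted p = 0.0294). None of the 76-base windows of Hist2h2bb is unique among annotated transcripts. They are shared only with the antisense Gm20628 and with Gm42743, which are both annotated over its exon, so its value is uncertain. Over all 18 H2B genes the sum was 631 and 559 CPM in the wild type and 329 and 223 CPM in the knockout, and the median log2 of those tested was -0.97.

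The H1 genes encode the linker histones that bind DNA between nucleosomes. All 5 that were tested lay lower in both knockout libraries than in both wild-type libraries, against 27.6% of all genes tested. Of the 5, 2 passed, where 3.01% of all genes passed as lower. Hist1h1b (21779883 to 21780625, minus strand) had 96.6 and 79.2 CPM in the wild type and 47.0 and 20.9 CPM in the knockout (log2 -1.37 ± 0.31, adjusted p = 0.0245). Hist1h1a had 33.3 and 35.5 CPM in the wild type and 18.2 and 13.97 CPM in the knockout (log2 -1.10 ± 0.25, adjusted p = 0.0279). The wild-type values of Hist1h1a differed little, and the groups did not overlap.

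Hist1h1e, the H1 gene with the highest level per kilobase, had 281 and 213 CPM in the wild type and 159 and 60.6 CPM in the knockout, a log2 of -1.17 that missed the threshold (adjusted p = 0.0574). The knockout libraries differed from each other by more than the wild-type ones did. Its exon overlaps those annotated for Hist1h2be and Gm11398, so reads could be assigned to either. Hist1h1c had 70.9 and 67.6 CPM in the wild type and 49.7 and 24.9 CPM in the knockout (log2 -0.89, adjusted p = 0.0756). The sixth, Hist1h1t, is the testis form and had 2, 8, 2 and 0 counts in the 4 libraries. DESeq2 called 4 H1 genes lower in place of 2.

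Among the H2A genes 2 of 11 tested were lower, where 3.01% of all genes tested were lower. Hist1h2ak (21753435 to 21753827, minus strand), the highest H2A gene per kilobase, had 81.1 and 35.5 CPM in the wild type and 26.3 and 13.1 CPM in the knockout (log2 -1.57 ± 0.39, adjusted p = 0.0360). Its wild-type libraries differed by more than wild-type library 2 differed from knockout library 1, and DESeq2 did not call it. Hist1h2ab had 19.6 CPM in both wild-type libraries and 10.2 and 6.91 CPM in the knockout (log2 -1.20 ± 0.32, adjusted p = 0.0450). With upper quartile scaling Hist1h2ab was no longer called.

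The fold changes of the H2A genes ranged from -2.12 to 1.07 on the log2 scale. Hist1h2af, the third H2A gene per kilobase, had 9.23 and 6.96 CPM in the wild type and 8.36 and 6.60 CPM in the knockout (log2 -0.11 ± 0.38), and its groups overlapped. Each of the 18 H2A genes overlaps an annotated antisense gene on its exon, against 1 of 18 H2B, 1 of 12 H3, 1 of 13 H4 and none of 6 H1 genes. Whether the counting used strand is not given in the sources used here, so reads of the 2 strands may not be separated for this type. The H2A sum was 152 and 103 CPM in the wild type and 76.8 and 46.7 CPM in the knockout.

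The H4 genes, which all encode one core histone that pairs with H3, were dominated by one gene. Hist1h4d (23581598 to 23582735, plus strand) held 89.4% of the H4 counts in wild-type library 1 and 89.1% in knockout library 2, and it had the highest count of all histone genes in every library. It had 459 and 437 CPM in the wild type and 303 and 158 CPM in the knockout, 1.94-fold lower (log2 -0.96 ± 0.24, adjusted p = 0.0373). The wild-type values were close together, and knockout library 2 was again the lower of its group. Hist1h4c had 20.1 and 15.3 CPM in the wild type and 12.4 and 8.18 CPM in the knockout (log2 -0.78, adjusted p = 0.172), and Hist1h4k had 7.22 and 4.99 against 2.80 and 1.17 CPM (log2 -1.61, adjusted p = 0.111). All 9 H4 genes tested had a negative fold change, against 48.8% of all genes tested. Hist1h4f alone had overlapping groups (log2 -0.65), and its sign turned without knockout library 2 (log2 0.03).

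None of the 10 H3 genes tested passed, though their median log2 of -1.33 was the most negative of the 5 types (not so without wild-type library 1). At an unadjusted p under 0.05, 4 were lower in edgeR's test and 0 higher, and DESeq2 called Hist1h3e. These genes had few reads: the H3 sum was 65.3 and 56.4 CPM in the wild type and 34.1 and 18.4 CPM in the knockout, or 3.46% and 3.05% of the histone counts in wild-type library 1 and knockout library 2. The share of 76-base windows unique among annotated transcripts ran from 0% in Hist2h3b and Hist2h3c1 to 77.9% in Hist1h3d, against 96.5% in Hist1h4d. The H3 level may therefore be an undercount beside other types. Hist1h3e, the highest H3 gene per kilobase, had 23.6 and 23.5 CPM in the wild type and 14.7 and 8.73 CPM in the knockout (log2 -1.01 ± 0.31, adjusted p = 0.0758). Hist1h3g had 10.2 and 5.95 against 3.84 and 1.52 CPM (log2 -1.58, adjusted p = 0.0993). Hist1h3i, the third in level, had 6.21 and 4.75 against 3.21 and 1.57 CPM (log2 -1.19, adjusted p = 0.211). In each of the 10 both knockout libraries lay below both wild-type libraries, against 27.6% of all genes tested.

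**Figure D2:**
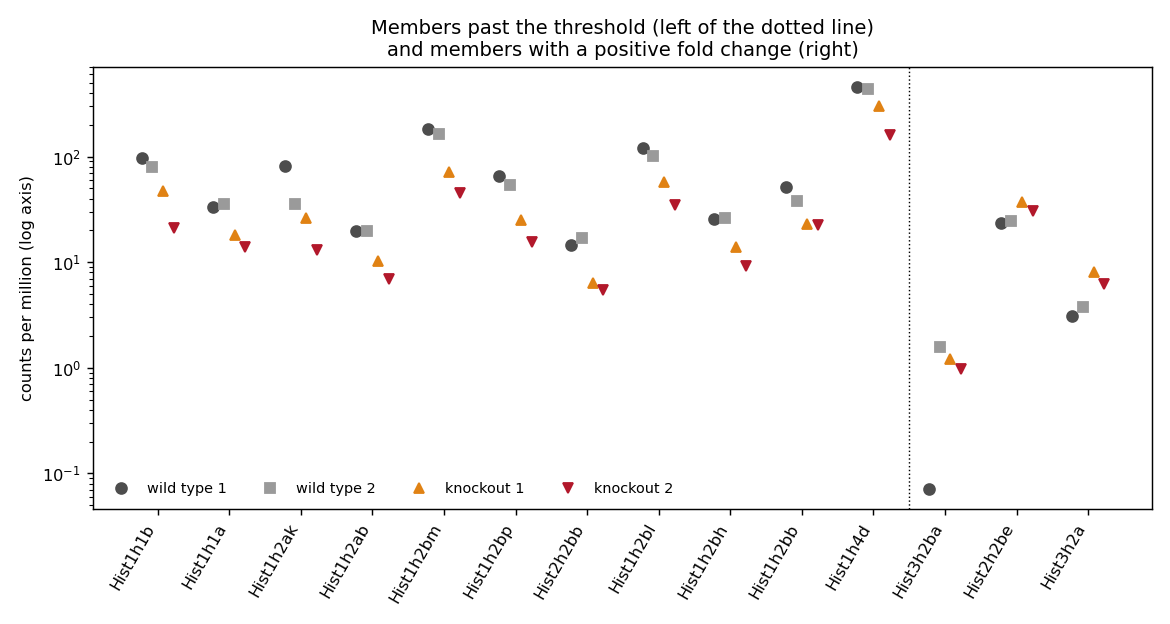
CPM on a log axis in each of the 4 libraries, for the 11 histone genes that passed as lower (left of the dotted line) and the 3 with a positive fold change (right). In the 11 both knockout libraries lie below both wild-type libraries, whereas Hist2h2be and Hist3h2a lie higher in the knockout and did not pass.

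A few genes held much of the histone counts. Per kilobase of annotated exon the wild-type mean level was 394 CPM for Hist1h4d, 330 for Hist1h2bm, 289 for Hist1h2bl and 148 for Hist1h2ak. It was 128 for Hist1h1e and 28.2 for Hist1h3e, the highest H3 gene. These levels and their order depend on the gene models. GENCODE gives 1138 bases for Hist1h4d, 1930 for Hist1h1e and 524 for Hist1h2bm, where RefSeq gives 402, 782 and 483. The genes Hist1h4d, Hist1h1e and Hist1h2bm were the 3 with the most counts in every library, and together they held 48.9% and 49.9% of the histone counts in the wild type and 49.5% and 44.0% in the knockout. H2B genes held 33.4% and 34.3% of the histone counts in the wild type and 30.5% and 37.0% in the knockout. H1 genes held 27.8% and 26.6% in the wild type and 28.0% and 22.7% in the knockout. The groups overlapped in these shares and in that of H2A. H4 genes held 27.2% and 29.4% in the wild type and 31.1% and 29.5% in the knockout. H3 genes held 3.46% in both wild-type libraries and 3.17% and 3.05% in the knockout. The groups did not overlap in these 2 shares, though for H4 they all but met (29.39% in wild-type library 2, 29.52% in knockout library 2). No share was tested. Reads that fit several genes may be missing from the counts, so levels and shares need not follow the RNA of each gene or type.

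Most histone counts were in Hist1. In Hist2, none of the 76-base windows of Hist2h2aa1, Hist2h2aa2, Hist2h2bb, Hist2h3b and Hist2h3c1 is unique among annotated transcripts. A window held by another gene annotated over the same exon also counts as not unique, as for Hist2h2bb with Gm20628 and Gm42743. The Hist2 sum may still be an undercount. In Hist1, the 54 genes summed to 1812 and 1554 CPM in the wild type and 1001 and 546 CPM in the knockout, and all 41 tested had a negative fold change, 10 of them lower (median log2 -1.17). In Hist2, the 10 genes summed to 66.8 and 70.0 CPM in the wild type and 64.2 and 47.4 CPM in the knockout, and 1 of 6 tested was lower (median log2 -0.83). Without Hist2h2be the other 9 summed to 43.1 and 45.5 CPM in the wild type and 27.3 and 17.2 CPM in the knockout, 61.5% and 38.7% of the wild-type mean, where Hist1 stood at 59.5% and 32.5%. That sum was taken after the values were seen. Hist4h4, on its own, had 5.42 and 3.46 against 2.21 and 1.22 CPM (log2 -1.37 ± 0.61, adjusted p = 0.194). Of all genes tested 3.01% were lower. The difference between the clusters was not tested.

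The 3 genes with a positive fold change all lay outside Hist1. Hist2h2be (chromosome 3, 96221119 to 96223738, plus strand), an H2B gene known to give polyadenylated RNA, had 23.7 and 24.5 CPM in the wild type and 37.0 and 30.2 CPM in the knockout. The groups did not overlap, but the difference did not pass (log2 0.48 ± 0.23, adjusted p = 0.235), and its sign was positive in each of the 12 fits made. All of its windows are unique. Hist3h2a had 3.09 and 3.74 CPM in the wild type and 8.13 and 6.25 CPM in the knockout (log2 1.07 ± 0.45, adjusted p = 0.166), and its exon overlaps Trim17 and the antisense Gm44313. Hist3h2ba had 2 and 39 counts in the wild type and 27 and 19 in the knockout, and its sign turned negative (log2 -0.52) without wild-type library 1.

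Hist2h2be shares its start region with the H2A gene Hist2h2ac, which lies 238 bases away on the other strand. Hist2h2ac (96220361 to 96220880) had 12.1 and 11.8 CPM in the wild type and 7.32 and 5.99 CPM in the knockout, a log2 of -0.85 ± 0.35 (adjusted p = 0.156). The counts of Hist2h2be were 1.96 and 2.07 times those of Hist2h2ac in the wild type and 5.05 and 5.04 times in the knockout. This ratio does not depend on any scaling between libraries, and it varied little within each group. The log2 difference of 1.33 between the groups had an exact two-sided permutation p of 0.333, the smallest that 2 against 2 libraries can give. This pair was singled out after its values were seen, among 13 divergent pairs with starts at most 1000 bases apart.

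In 8 of the 13 pairs both genes were tested. In 4 of the 8 the ratio was higher in both knockout libraries than in both wild-type libraries, and in the other 4 the groups overlapped. The share for gene pairs of other kinds was not measured, so this count is no result about divergent pairs. The ratio of Hist1h2bl to its H2A partner Hist1h2ai was 13.6 in both wild-type libraries and 12.5 and 16.8 in the knockout (log2 -1.25 and -1.27 for the 2 genes). Hist1h2bc over Hist1h2ac was 2.01 and 1.81 in the wild type and 2.16 and 4.68 in the knockout, where only knockout library 2 was far from the rest. Hist1h2bk over Hist1h2ah was 24.4 and 8.16 in the wild type and 28.4 and 35.0 in the knockout, on as few as 2 counts of Hist1h2ah in a library.

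**Figure D3:**
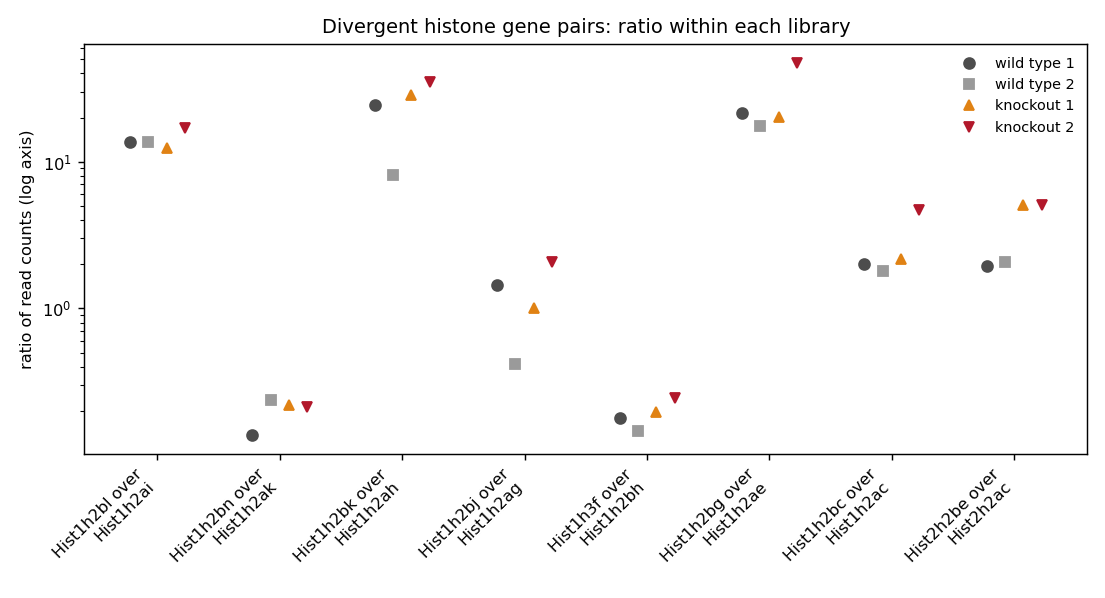
Ratio of the read counts of the 2 genes of each divergent pair on a log axis, in each library, for the 8 pairs in which both were tested. For Hist2h2be over Hist2h2ac the wild-type libraries lie at 1.96 and 2.07 and the knockout libraries at 5.05 and 5.04, and in 4 of the other 7 pairs the groups overlap.

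The region between Hist2h2ac and Hist2h2be is shown because it spans the bases between the starts of that pair, and the start of Hist1h2bm because that gene had the smallest p of the family. Both are the RefSeq promoter windows of GRCm38.p6, from 250 bases before the start to 50 after it, 5' to 3' on the strand of the gene. Capitals mark the octamer ATTTGCAT, the CCAAT box and the TATA box TATAAA on either strand. The Hist2h2ac window is chr3:96220831-96221130 on the minus strand, and that of Hist1h2bm is chr13:21721794-21722093 on the plus strand.
Hist2h2ac: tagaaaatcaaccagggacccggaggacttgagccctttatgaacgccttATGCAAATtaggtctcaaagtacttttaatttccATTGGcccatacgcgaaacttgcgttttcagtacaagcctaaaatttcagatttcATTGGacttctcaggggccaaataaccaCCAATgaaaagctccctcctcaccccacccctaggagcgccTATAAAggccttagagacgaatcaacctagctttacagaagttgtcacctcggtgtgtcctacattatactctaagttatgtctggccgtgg
Hist1h2bm: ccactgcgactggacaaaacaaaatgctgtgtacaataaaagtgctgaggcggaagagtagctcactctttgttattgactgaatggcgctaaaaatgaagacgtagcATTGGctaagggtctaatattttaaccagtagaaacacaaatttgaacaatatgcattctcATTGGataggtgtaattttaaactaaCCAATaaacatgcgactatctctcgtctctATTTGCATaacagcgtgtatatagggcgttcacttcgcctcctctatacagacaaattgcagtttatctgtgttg
Each window held 1 octamer and 3 CCAAT boxes, and that of Hist2h2ac held 1 TATA box.

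Of the 67 genes, 62 had an entry among the RefSeq promoters. The octamer ATTTGCAT, bound by POU factors such as Oct-1, was in 14 of them (7 of 18 H2A and 7 of 16 H2B, none of the other types), against 1.74% of all 32851 promoters. The CCAAT box was in 53 (against 37.4% of all promoters), among them each H1, H2A, H2B and H3 window and 3 of 12 H4 windows. TATAAA was in 35 (against 13.6%). AAACACA, the letters of an H1 promoter element, was in 5 of 6 H1, 2 of 18 H2A and 2 of 16 H2B windows (against 7.18%). GGTCCG was in 11 of 12 H4, 1 of 16 H2B and 1 of 10 H3 windows (against 8.25%). These letters were chosen after several others had been tried on the same windows. All were searched on both strands, and a match of one motif may share bases with a match of another. Windows of divergent pairs can overlap, so the same site may be counted for both genes of a pair. The tested genes with an octamer had a median log2 of -1.10 and those without it -1.18, and for TATAAA the medians were -1.16 and -1.21.

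Reads that fit several histone genes could not be placed, and how the counting treated them is not given in the sources used here. Of the 67 genes, 17 were not tested for lack of reads, and 7 of them had no read in any library. The median share of 76-base windows unique among annotated transcripts was 15.4% in those 17 and 63.8% in the 50 tested. It also falls where another gene is annotated over the same exon, so it does not measure reads that fit several places alone. The 33 tested genes with at least 50% unique windows had a median log2 of -1.05 with 8 lower, and the 17 tested genes below that share had -1.20 with 3 lower, so the direction was alike in both. Summed CPM in the knockout was 48.0% of the wild type in the former and 45.8% in the latter. A gene with no read allows up to 3 counts, which is 0.108 to 0.152 CPM in these libraries, for counting error only. The testis genes Hist1h2ba (2 counts in knockout library 1 alone) and Hist1h2aa (0 in all) were below that level, and Hist1h1t was above it in wild-type library 2 alone (8 counts, 0.322 CPM).

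Genes known to give polyadenylated RNA were not all alike. None of the 6 that were tested passed in edgeR's test (3 lower at an unadjusted p under 0.05, Hist1h1c called lower by DESeq2), and their median log2 was -0.77. Hist1h2bc had 14.04 and 10.9 CPM in the wild type and 7.91 and 8.79 CPM in the knockout (log2 -0.58 ± 0.33, adjusted p = 0.312), and Hist1h2ac, its divergent partner, had 7.001 and 6.03 against 3.66 and 1.88 CPM (log2 -1.23). Genes with an annotated transcript that runs over 100 bases past the stem-loop had a median log2 of -0.96 over 19 tested. Those with at most 100 bases past it had -1.20 over 15. Those with no stem-loop match, among them Hist2h2be and Hist1h2bc, had -1.22 over 16. The differences were not tested. Whether the libraries selected for poly(A) is not given in the sources used here, so a level here need not follow the total amount of each histone mRNA.

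The genes that act on histone RNA were examined from lists by role. Of 8 genes of histone gene transcription none passed (2 lower at an unadjusted p under 0.05, and 0 by DESeq2). Npat, which drives the histone clusters, had 101 and 106 CPM in the wild type and 93.2 and 96.4 CPM in the knockout (log2 -0.13 ± 0.16, adjusted p = 0.659). Casp8ap2, which works with NPAT at histone locus bodies, had 182 and 165 against 135 and 120 CPM (log2 -0.44, adjusted p = 0.104). The median of this list was -0.22.

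Of 17 genes of histone 3' end processing 3 were lower, where 3.01% of all genes tested were lower. Slbp, the stem-loop binding protein, had 148 and 130 CPM in the wild type and 90.6 and 89.7 CPM in the knockout (log2 -0.63 ± 0.16, adjusted p = 0.0390), and its knockout libraries were nearly equal. Snrpf and Cstf2, which also serve other RNAs, had log2 values of -1.10 and -0.62. With upper quartile scaling, or without either wild-type library, none of the 3 passed. Of 5 genes of histone RNA decay 1 was lower, Eri1, the exonuclease that trims and degrades histone mRNA, at 267 and 251 CPM in the wild type and 178 and 143 CPM in the knockout (log2 -0.69 ± 0.16, adjusted p = 0.0271). The median log2 of this list was 0.23, with 2 of the 5 negative. Xrn1 had 85.2 and 90.4 CPM in the wild type and 113 and 116 CPM in the knockout (log2 0.39). It was higher at an unadjusted p under 0.05 in edgeR's test but did not pass. Eri1 did not pass without either wild-type library or without knockout library 2.

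Histone genes of the replication-independent kind changed in part. Of 11 such genes 3 were lower, where 3.01% of all genes tested were lower. H2afx, the source of the H2A form that is phosphorylated at DNA breaks, had 368 and 345 CPM in the wild type and 195 and 95.5 CPM in the knockout (log2 -1.29 ± 0.26, adjusted p = 0.0153). Its transcript can end in a stem-loop as well as in poly(A), and knockout library 2 was the lowest, as for most of the Hist1 genes. H2afy, which encodes macroH2A, had a log2 of -0.87 and H2afz, which encodes H2A.Z, one of -0.75. H2afz did not pass with upper quartile scaling or without either wild-type library or knockout library 2. H1f0, the linker histone of resting cells, had 75.5 and 83.2 CPM in the wild type and 99.8 and 89.99 CPM in the knockout (log2 0.26, adjusted p = 0.366). Of 24 histone chaperone genes 6 were lower, against the same 3.01% of all genes. Dnajc9 had 209 and 193 CPM in the wild type and 115 and 99.5 CPM in the knockout (log2 -0.90, adjusted p = 0.00825), and Nap1l1 had 960 and 834 against 528 and 510 CPM (log2 -0.79, adjusted p = 0.00868). Without wild-type library 1 none of the 24 passed, and without wild-type library 2 there were 2.

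Genes of the cell cycle moved in the same direction as the histone genes. Of 30 DNA replication genes 18 were lower, with a median log2 of -0.80, where 3.01% of all genes tested were lower. Pcna, the sliding clamp of the replication fork, had 567 and 581 CPM in the wild type and 311 and 260 CPM in the knockout (log2 -1.01 ± 0.15, adjusted p = 0.00301). Of 20 mitosis genes 15 were lower, with a median log2 of -1.12, and Top2a had 973 and 952 CPM in the wild type and 412 and 473 CPM in the knockout (adjusted p = 0.00111). Without wild-type library 1 the numbers were 2 and 8, and without wild-type library 2 they were 5 and 9.

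The knockout libraries differed more from each other in the histone genes than in the DNA replication or mitosis genes. The summed erythroblast markers differed by more still, at 641 CPM in knockout library 1 and 280 CPM in knockout library 2. The mast cell and basophil markers stood at 190 and 118 CPM. The summed DNA replication genes stood at 65.4% of the wild-type mean in knockout library 1 and 52.2% in knockout library 2, and the mitosis genes at 55.2% and 60.1%. The histone genes stood at 61.2% and 34.2%, so that knockout library 2 reached 55.9% of knockout library 1. For the replication genes the figure was 79.8% and for the mitosis genes 109%. The ratio of summed histone to summed replication CPM was 0.442 and 0.428 in the wild type, 0.407 in knockout library 1 and 0.285 in knockout library 2. Of the 50 histone genes, 46 were lower in knockout library 2 than in library 1, against 50.8% of all genes tested. Rn45s was lowest in the same library. With Rn45s left out of the totals, histone genes took 0.208% and 0.187% of the counts in the wild type, 0.127% in knockout library 1 and 0.0735% in knockout library 2, which was then at 58.0% of knockout library 1.

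**Figure D4:**
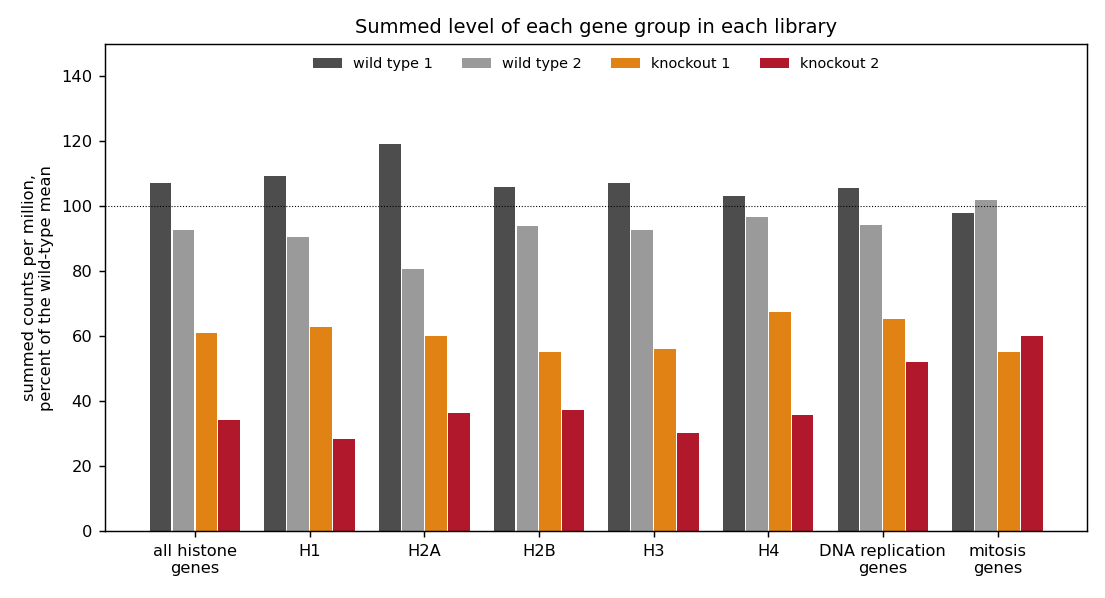
Summed CPM in each library as a percent of the wild-type mean (dotted line), for all 67 histone genes, the 5 protein types, 30 DNA replication genes and 20 mitosis genes. Both knockout libraries lie below both wild-type libraries in each group, and knockout library 2 lies at 34.2% for the histone genes, 52.2% for the replication genes and 60.1% for the mitosis genes.

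Genes of other kinds also lie inside the Hist1 cluster. Of 54 such genes in the table, 40 had no read in any library and 5 were tested. None of the 5 passed in edgeR's test, with 0 at an unadjusted p under 0.05, nor in DESeq2, which called Btn1a1 higher on 45 counts in knockout library 1 and 0 in the others. Zfp322a had 59.5 and 54.4 CPM in the wild type and 62.7 and 57.5 CPM in the knockout (log2 0.08 ± 0.18), and Abt1 had 18.3 and 14.4 against 13.6 and 18.5 CPM (log2 -0.03). Hfe, the iron regulator, had 1.80 and 1.17 against 2.58 and 4.11 CPM (log2 1.17, adjusted p = 0.301). The median log2 of the 5 was 0.08, against -1.17 for the 41 histone genes tested in the same cluster. That difference was not tested.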

How the data were processed

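Raw, whole-number counts per gene symbol, not normalized, were deposited by the authors for the 4 libraries. The submitters' processing notes name TopHat2 (2.1.1), SAMtools (1.5), Picard (2.9.4), HTSeq (0.8.0) and the build mm10. Each library began with 20 ng of RNA and was read for 76 cycles, per the labels' protocols. Which annotation was used, and how strand, duplicates and multiply mapped reads were handled, is not given in the sources used here. Counts were fitted in R 4.3.3 with edgeR 4.0.16 (TMM factors, filterByExpr with a minimum count of 10 and a minimum total of 15, quasi-likelihood test of 2 against 2 libraries), and p-values were adjusted by Benjamini-Hochberg over the 14140 genes tested. The fit was checked on simulated counts. Alternatives included DESeq2 1.42.0, other scalings and filters, a replicate block and leaving out each library. Positions and exon lengths are from GENCODE vM21 (GRCm38), which listed all 67 genes, and uniqueness was measured among its transcripts on both strands, not in the whole genome. A divergent pair has starts at most 1000 bases apart on opposite strands. Named genes are those past the threshold, the 3 highest per kilobase and the smallest p of each type, the highest of each small cluster, testis and polyadenylated forms, and up to 4 of each list. Hist2h2ac, Hist1h4f, Btn1a1 and the genes of the other pairs were named after their values were seen. The members and lists were chosen with earlier results of these data known.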

Additional observations from a re-analysis of the deposited data

How the results depend on the processing

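The median log2 fold change of the histone genes tested was negative in every fit made, from -1.51 without knockout library 1 to -0.81 without knockout library 2, and 0 histone genes were called higher by edgeR or DESeq2 in any of them. The number of histone genes called lower, 11, became 20 with no filter on low counts and ranged from 2 to 26 when each library was left out. Among members with at least 50% unique windows, a choice made after seeing the data, it was 8. Over all genes, 425 lower and 533 higher became 817 and 854 with DESeq2 and 987 and 1056 with no filter, and ranged from 95 to 1161 lower and from 160 to 997 higher when each library was left out. Upper quartile scaling moved the median of all genes to 0.10 and the split to 289 lower and 664 higher, with 10 histone genes lower. Same-numbered libraries shared only a number, as the labels give no shared animal, litter or day (their deviations correlated at 0.076 over all genes and 0.102 over the histone genes), and a fit with the replicate number as a block called 1317 lower and 1314 higher over all genes and 23 histone genes lower. Signs turned in 5 of the genes followed when a library was left out: the log2 of Hist1h2af ranged from -0.32 to 0.10 (0.04 without knockout library 2), of Hist1h2bj from -1.19 to 0.20, of Hist1h4f from -2.05 to 0.030, of Hist3h2ba from -0.52 to 3.82, the negative value without wild-type library 1, and of Zfp322a from -0.000132 to 0.14. The cause was not tested. With 2 libraries a group and a common biological coefficient of variation of 0.266, histone genes of few reads could not be told from no change.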
